A study of Mus musculus with 18 samples.

Results

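On chromosomes 1 to 19, 5236 regions of open chromatin were listed in wild-type myoblasts and in none of the other 3 groups of this ATAC-seq series. They were chosen by merging the peaks of all 4 peak lists wherever they overlapped by 1 bp or more, and keeping merged regions that held a wild-type myoblast peak and no peak of MyoD-null myoblasts or of either myocyte group. The 5236 regions were 3.76% of the 139354 merged regions (95% Wilson interval 3.66 to 3.86) and 5.62% of the 93177 regions of the wild-type myoblast list (5.47 to 5.77). Each of them held exactly 1 peak. The listing of peaks chose these regions, so their strength in the wild-type myoblast list is given as a description and supports no difference between the groups.

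ATAC-seq uses a transposase that inserts sequencing adapters where DNA is not wrapped tightly in nucleosomes, so that a pile of reads marks promoters, enhancers and other accessible sites. Myoblasts are proliferating muscle precursors that leave the cell cycle and become myocytes when differentiation begins. MyoD is a basic helix-loop-helix transcription factor that binds E-box sequences, can act on closed chromatin as a pioneer factor, and drives muscle gene expression together with its relatives Myf5 and myogenin. A peak list records where the reads passed a statistical limit, so a site can be missing from a list because it was less accessible or because it was covered too thinly to pass.

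The groups were wild-type myoblasts, MyoD-null myoblasts, myocytes labelled wild type and myocytes labelled MyoD-null, each with 3 samples from mouse skeletal muscle. Both myocyte groups had undergone myogenic differentiation for 24 h. The labels used here do not state strain, age, sex or the design of the null allele. The authors deposited 1 list per group, called on merged samples, so no value below has an error between replicates, no test between groups was possible, and every interval covers counting error only. The peak lists hold no expression values, so the labelled cell types were not checked against marker genes.

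The peak names in the myocyte list labelled wild type carry the MyoD-null tag, and those in the myocyte list labelled MyoD-null carry the wild-type tag. The choice of regions does not depend on which is right, because a region had to be missing from both myocyte lists. The 4 lists held 96420 peaks on chromosomes 1 to 19 in wild-type myoblasts, 100192 in MyoD-null myoblasts, 109753 in the myocytes labelled wild type and 86575 in those labelled MyoD-null. The genome-wide background, in mean reads over a base as solved from the deposited values, was 8.18 in wild-type myoblasts, where a summit over that background needed at least 20 reads to be listed. It was 8.54 in MyoD-null myoblasts (21 reads needed), 5.29 in the myocytes labelled wild type (15 reads) and 6.34 in those labelled MyoD-null (17 reads).

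Of the wild-type myoblast regions, 12.5% were not listed in MyoD-null myoblasts, 18.4% were not listed in the myocytes labelled wild type and 22.6% were not listed in those labelled MyoD-null. The 5236 regions missing from all 3 lists were fewer than the 6522 (7.0%) that wild-type myoblasts shared with MyoD-null myoblasts alone. They were more than the 2510 (2.69%) shared with the myocytes labelled wild type alone, the 1188 (1.27%) shared with those labelled MyoD-null alone, and the 2719 (2.92%) shared with both myocyte lists and not with MyoD-null myoblasts. The remaining regions were the 64013 (68.7%) listed in all 4 groups and those shared with MyoD-null myoblasts and 1 myocyte list. Those were 6824 (7.32%) with the myocytes labelled wild type and 4165 (4.47%) with those labelled MyoD-null.

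Each other list had such a class of its own. Regions listed only in MyoD-null myoblasts numbered 7690, or 8.03% of that list. Regions listed only in the myocytes labelled wild type numbered 22506 (20.7% of the list) and those only in the myocytes labelled MyoD-null 4749 (5.59%). The share in wild-type myoblasts, 5.62%, thus lay below that of MyoD-null myoblasts and next to that of the myocytes labelled MyoD-null, whose interval (5.44 to 5.75) overlapped its own (5.47 to 5.77).

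The regions were weak peaks. Fold enrichment was given by the authors' peak caller as the reads at the summit over the local background, with 1 added to each. Its median was 2.91 in the 5236 regions, with quartiles of 2.64 and 3.16 and a range of 1.50 to 4.79. In all 93177 wild-type myoblast regions the median was 3.81, with quartiles of 3.09 and 5.01 and a highest value of 17.9. A fold enrichment of at least 3 was found in 2046 of the 5236 regions (39.1%), against 78.9% of all wild-type myoblast regions. A fold enrichment of at least 4 was found in 55 regions (1.05%), against 44.6%. None of the 5236 reached 4.94, the upper quartile of the wild-type myoblast list, a count of 0 that allows a share of up to 0.0573%.

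**Figure D1:**
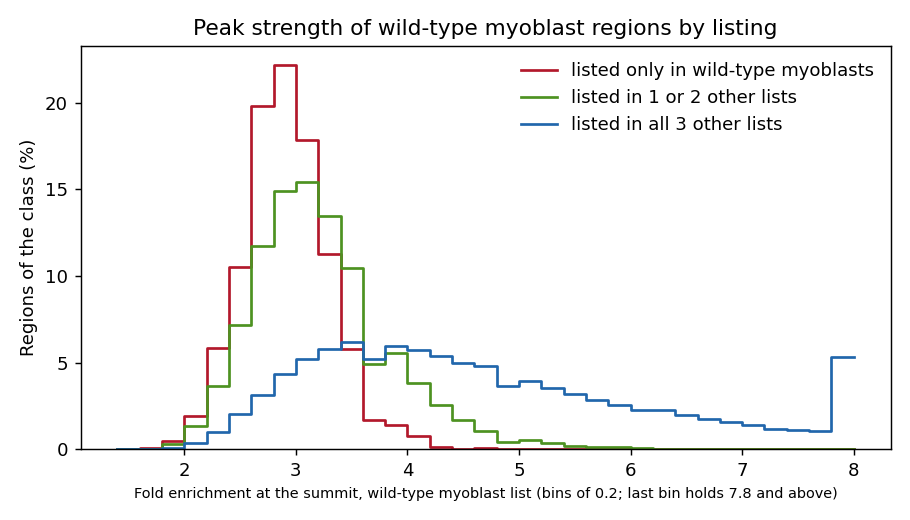
Distribution of fold enrichment in the wild-type myoblast list (x axis, ratio) as a percentage of each class of regions (y axis), for regions listed only in wild-type myoblasts, regions also listed in 1 or 2 other lists, and regions listed in all 3 other lists. The first class ends at 4.79, while regions listed in all 4 groups had a median of 4.37 and reached 17.9.

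The regions listed nowhere else had the lowest median strength of all 8 combinations of lists. Their median fold enrichment of 2.91 compared with 2.94 in those shared with the myocytes labelled wild type alone and 2.96 in those shared with the myocytes labelled MyoD-null alone. It was 2.99 in regions shared with both myocyte lists, 3.16 in those shared with MyoD-null myoblasts alone, 3.27 and 3.33 in those shared with MyoD-null myoblasts and the myocytes labelled wild type or MyoD-null, and 4.37 in regions of all 4 lists. The regions listed nowhere else were also narrow. Their median width was 246 bp, against 423 bp for the strongest peak of all wild-type myoblast regions. Of them, 607 (11.6%) were exactly 200 bp wide, the lowest width in the list, against 2.05% of all. In regions shared with 1 or 2 other lists the median width was 252 to 330 bp. Regions listed only in MyoD-null myoblasts were alike, with a median fold enrichment of 2.93 and width of 245 bp. The medians were 3.20 and 273 bp in regions only in the myocytes labelled MyoD-null. They were 3.77 and 334 bp in regions only in the myocytes labelled wild type.

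Weak peaks made up most of the class by probability as well. The −log10 q given by the authors had a median of 5.01 in the 5236 regions and 11.9 in all wild-type myoblast regions. Of the 489 wild-type myoblast regions with a −log10 q of 2 to 3, 186 (38.0%, 33.8 to 42.4) were listed in no other group. The share was 22.2% (21.2 to 23.3) at 4 to 5, 9.61% (8.86 to 10.4) at 6 to 7, and 1.09% (0.886 to 1.34) at 10 to 12. At 12 to 16 it was 13 of 10289 regions (0.126%). None of the 35333 regions with a −log10 q of 16 or more was missing from all 3 other lists, a count of 0 that allows a share of up to 0.00849%. The share fell at every step.

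**Figure D2:**
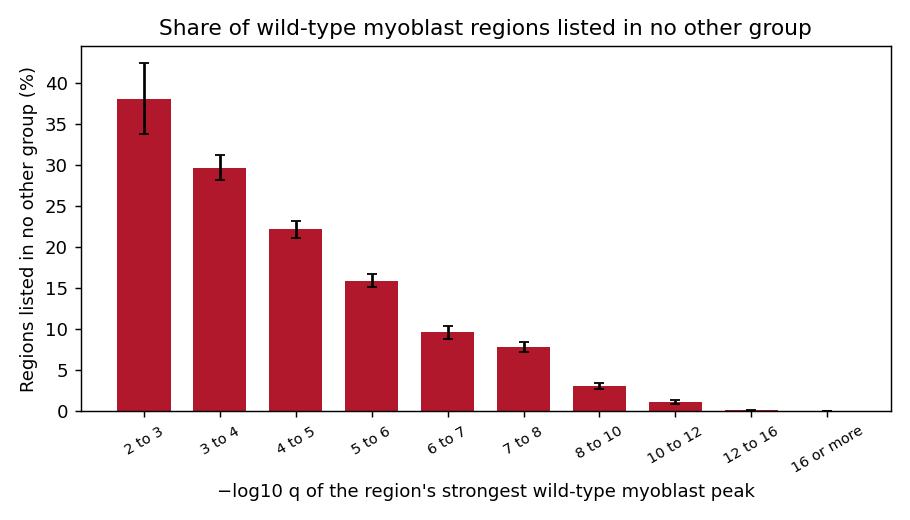
Percentage of wild-type myoblast regions listed in no other group (y axis) by the −log10 q of their strongest wild-type myoblast peak (x axis), with 95% Wilson intervals as error bars. The share was 38.0% in the weakest interval and 0 of 35333 regions in the strongest.

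The number of reads at the summit was small for most of the regions. The summit was covered by 20 to 123 reads, with a median of 28 and quartiles of 25 and 31. All wild-type myoblast regions had a median of 45 and quartiles of 33 and 67. Of the 5236 regions, 2887 (55.1%, 53.8 to 56.5) were scored against the genome-wide background of 8.18 reads, against 28.4% of all wild-type myoblast regions. A local background of at least 2 times that level was found at 198 of them (3.78%), against 17.7% of all. The regions lay more often than all wild-type myoblast regions in surroundings with few reads, but weak peaks shared with other lists were close to them. The median background was 8.18 reads in them. It was also 8.18 in regions shared with MyoD-null myoblasts alone or with myocytes labelled wild type alone, and 8.26 to 11.6 otherwise. In the −log10 q intervals 2 to 4, 4 to 6, 6 to 8 and 8 to 16, the regions had 8.18. Those shared with 1 or 2 other lists had 8.38, 8.42, 8.52 and 8.18.

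**Figure D3:**
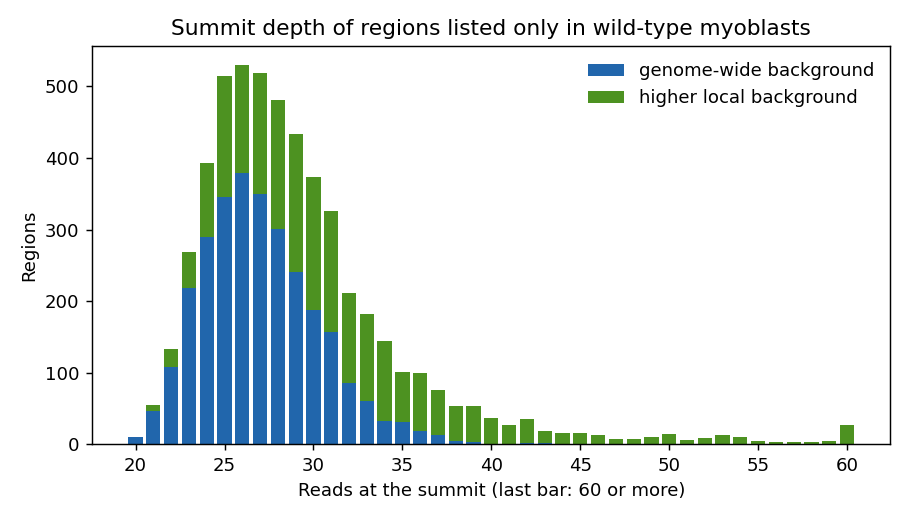
Number of regions listed only in wild-type myoblasts (y axis) by the number of reads at the summit (x axis), split by whether the peak was scored against the genome-wide background or a higher local background. Counts are highest at 26 reads, with 530 regions, and 10 regions sit at the lowest listed value of 20 reads.

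Most of the regions had folds above the lowest, but near the lower end, of those listed elsewhere. The lowest fold enrichment listed over the genome-wide background was 2.31 in MyoD-null myoblasts, 2.55 in the myocytes labelled wild type and 2.45 in those labelled MyoD-null. Of the 2887 regions, 2877 (99.7%) reached the limit of MyoD-null myoblasts, 2722 (94.3%) that of the myocytes labelled wild type, and 2830 (98.0%) that of the myocytes labelled MyoD-null. Being listed over that background in wild-type myoblasts already took a fold enrichment of at least 2.29. The share of 99.7% was thus nearly fixed by the listing, and none of these shares supports a difference between the groups. Set against the whole lists, 73.5% of the 5236 regions reached the 10th percentile of fold enrichment in MyoD-null myoblasts (2.66), 38.3% that of the myocytes labelled wild type (3.02) and 2618 of the 5236 that of the myocytes labelled MyoD-null (2.91). The same shares were not taken over all wild-type myoblast regions. For scale, the 10th percentile of the wild-type myoblast list itself was 2.68. A fold enrichment of at least 3 was reached by 78.9% of all its regions and by 39.1% of the 5236. How many reads the other groups had at these sites is not recorded in a peak list, so the size of the difference at a site could not be given.

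The strongest regions had summits of 39 to 43 reads over about 8 reads of background. A pair of regions shared the highest fold enrichment of 4.79 with 43 reads each: chromosome 12, 7823408 to 7823736, and chromosome 14, 94116278 to 94116559 (mm9, counted from 1). The chromosome 12 site stood 38399 bp from the nearest peak of any other list. The chromosome 14 site had a peak of the myocytes labelled wild type 21383 bp away, while the nearest peaks of MyoD-null myoblasts and of the other myocytes were 171906 and 171931 bp away. Equal values recur because summit reads are whole numbers over 1 shared background.

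Next came chromosome 13, 69586258 to 69586881, and chromosome 7, 76106867 to 76107207, each with a fold enrichment of 4.68 and 42 reads. The chromosome 13 region was 624 bp wide, and peaks of all 3 other lists stood 12095 to 12121 bp away. A region on chromosome 5, 82775726 to 82776043, reached 4.58 with 41 reads and lay 707481 bp from the nearest region listed in all 4 groups. On chromosome 6, the region from 126950605 to 126950959 reached 4.47 with 40 reads, and MyoD-null myoblasts had a peak 3818 bp away.

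The last of the 10 strongest regions had 39 reads each. The fold enrichment was 4.36 at chromosome 5, 100537933 to 100538293, chromosome 2, 122596781 to 122597083, and chromosome 6, 85652145 to 85652360. It was 4.26 at chromosome 12, 87669849 to 87670111, over a local background of 8.40 reads. Their surroundings differed widely. The chromosome 5 site had a MyoD-null myoblast peak 660 bp away and the second chromosome 12 site a peak of the myocytes labelled wild type 625 bp away, whereas the chromosome 6 site at 85652145 was 111607 bp from any peak of another list.

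Every chromosome had a region of similar top strength. The strongest region of each of the 19 chromosomes had a fold enrichment between 3.81 and 4.79. The lowest of these was on chromosome 15, 67313308 to 67313602, with 34 reads. Chromosome 11 was led by the region from 113195841 to 113196178, with the most reads of the 19, 45, over a local background of 10.0 and a fold enrichment of 4.18. Chromosome 1 was led by 51725841 to 51726158 and chromosome 8 by 34214419 to 34214742, both with 4.25 and 38 reads. On chromosome 4 (99267580 to 99267909), chromosome 16 (88112950 to 88113531) and chromosome 19 (54856111 to 54856374) the value was 4.14 with 37 reads each. On chromosome 3 (9779861 to 9780296) it was 4.04 with 37 reads.

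The other chromosomes were led by regions with a fold enrichment of 4.03 and 36 reads. These were chromosome 9, 33103678 to 33103924, chromosome 10, 87213191 to 87213413, chromosome 17, 12074100 to 12074321, and chromosome 18, 43523162 to 43523443. The leading regions stood at very different distances from the other lists. The region on chromosome 3 was 1518 bp from a peak of the myocytes labelled MyoD-null, and the one on chromosome 8 was 80437 bp from its nearest peak, one of the myocytes labelled wild type.

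The widest regions varied in strength. The first, chromosome 6, 31967261 to 31968449, spanned 1189 bp with a fold enrichment of 2.94 and 26 reads, and no other list had a peak within 78486 bp. The next were both on chromosome 17 and lay above the upper quartile of fold enrichment of the 5236 regions, at 6998517 to 6999421 (905 bp, fold enrichment 3.80) and at 57341222 to 57342098 (877 bp, 3.47). In all, 61 of the 5236 regions (1.17%) were wider than 500 bp, against 39.1% of all wild-type myoblast regions.

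At the opposite end, the regions closest to the authors' q limit had a −log10 q of 2.02 (chromosome 7, 56872459 to 56872691, 24 reads), 2.06 (chromosome 11, 114576678 to 114576917, 23 reads) and 2.10 (chromosome 2, 157502876 to 157503191, 21 reads). All 3 lay close to peaks of other groups, at 176, 493 and 105 bp.

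The rule of 1 bp overlap divided a small number of near neighbours. Of the 5236 regions, 20 had a gap of at most 10 bp to a peak of another list, and 16 wild-type myoblast peaks were left out on an overlap of 1 to 10 bp. Within 50 bp the numbers were 58 regions kept and 93 peaks left out. Just inside were chromosome 4, 153611146 to 153611347 (fold enrichment 2.84), which touched a peak of the myocytes labelled wild type, and chromosome 9, 43014158 to 43014388 (2.44), which touched a peak of MyoD-null myoblasts. Next to them, chromosome 5, 24063484 to 24063959 (3.79), stood 2 bp from a MyoD-null myoblast peak. Just outside were chromosome 9, 62438720 to 62439019 (3.24), and chromosome 1, 57847290 to 57847543 (2.74), which overlapped peaks of the myocytes labelled wild type and MyoD-null by 1 bp each.

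Position was not used to choose the regions beyond that overlap. The median gap between a region and the nearest peak of any other list was 3967 bp, and 233 regions (4.45%) lay within 200 bp of one. By list, the median gap was 5788 bp to MyoD-null myoblasts, 5500 bp to the myocytes labelled wild type and 7372 bp to those labelled MyoD-null, the shortest list. Within 10 kb of a region there was a MyoD-null myoblast peak in 68.7% of cases (67.5 to 69.98).

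The regions stood farther from the chromatin shared by all groups than wild-type myoblast regions shared with 1 or 2 other lists did. The nearest region listed in all 4 groups was at a median of 9683 bp (9371 to 10106). For wild-type myoblast regions shared with 1 or 2 other lists it was 8523 bp (8337 to 8683). Within 10 kb, 50.99% (49.6 to 52.3) of the regions listed nowhere else and 54.96% (54.3 to 55.6) of the partly shared regions had such a neighbour, so that the intervals did not overlap. The regions listed only in MyoD-null myoblasts gave 53.2% (52.1 to 54.3), an interval that slightly overlapped that of the regions listed only in wild-type myoblasts. Those listed only in the myocytes labelled wild type gave 61.4% (60.8 to 62.0) and those listed only in the myocytes labelled MyoD-null 68.6% (67.3 to 69.9). Local density differed little over all strengths. The 500 kb on either side of a region held a median of 58 other wild-type myoblast regions (58 to 59), against 60 for the partly shared regions (59 to 60).

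Peak strength differed between these classes, so the distances were also compared at like strength. Among regions with a −log10 q of 4 to 6, 50.97% (49.02 to 52.9) of the 2519 regions listed nowhere else and 57.8% (56.7 to 58.9) of the 7663 partly shared regions lay within 10 kb of a region of all 4 groups. At 6 to 8 the shares were 51.3% (48.3 to 54.3) and 56.7% (55.4 to 57.9). At 8 to 16 they were 44.9% (40.05 to 49.8) and 50.7% (49.6 to 51.9), with intervals that overlapped slightly. The weakest interval, 2 to 4, gave 52.7% (49.9 to 55.4) and 58.4% (56.4 to 60.4). The regions listed nowhere else were the more distant ones in all 4 intervals. Their median local density was also lower in each. It was 59 (58 to 60) against 62 (61 to 63) at 4 to 6, and 56 (54 to 58) against 61 (60 to 62) at 6 to 8. At 2 to 4 it was 61 (59 to 63) against 63 (62 to 65), and at 8 to 16 it was 52.5 (47 to 56) against 56 (55 to 57), where the ranges overlapped.

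**Figure D4:**
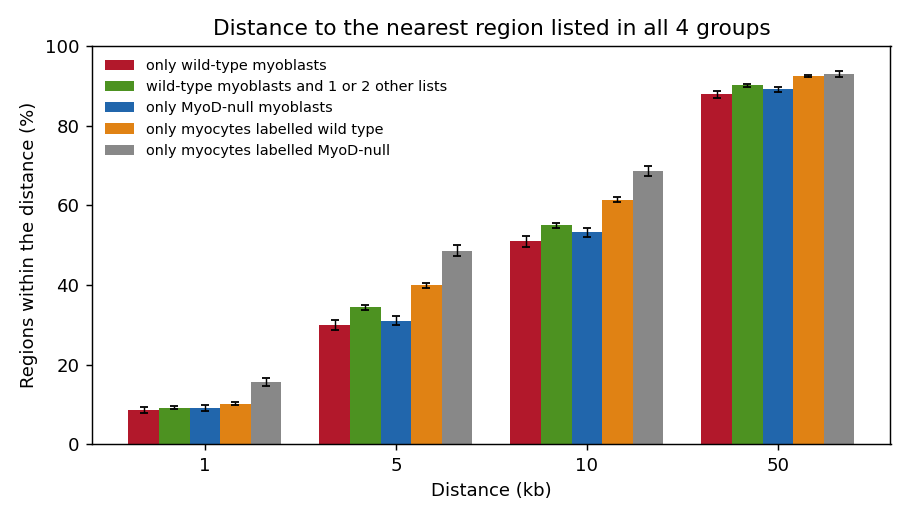
Percentage of regions (y axis) with a region listed in all 4 groups within 1, 5, 10 or 50 kb (x axis), for regions listed only in wild-type myoblasts, wild-type myoblast regions shared with 1 or 2 other lists, regions only in MyoD-null myoblasts, regions only in myocytes labelled wild type and regions only in myocytes labelled MyoD-null, with 95% Wilson intervals. At 10 kb the bars of these classes stand at 50.99%, 54.96%, 53.2%, 61.4% and 68.6%.

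All 19 chromosomes carried such regions. Chromosome 2 had the most, 404 of 7376 wild-type myoblast regions (5.48%), and chromosome 19 the fewest, 130 of 2801 (4.64%, 3.92 to 5.48). The highest share was on chromosome 14, with 251 of 3662 regions (6.85%, 6.08 to 7.72). These 2 chromosomes were the ones whose interval left out the share of 5.62% on all 19. Chromosome 14 also had a larger part of weak regions, since 20.999% of its wild-type myoblast regions had a −log10 q below 6, against 18.8% on all 19 and 17.7% on chromosome 19. Among those weak regions alone, the share listed nowhere else was 24.2% (21.3 to 27.3) on chromosome 14, 18.9% (15.7 to 22.6) on chromosome 19 and 21.6% (20.98 to 22.2) on all 19. Both intervals then included the value of all 19, on fewer regions, and chromosome 14 still stood above chromosome 19. With a −log10 q of 5 or more, the share on chromosome 14 was 3.94% (3.32 to 4.67), against 3.16% (3.04 to 3.28) on all 19. Its interval again left out the value of all 19. So did those of chromosome 11 (2.68%, 2.30 to 3.12) and chromosome 17 (2.53%, 2.07 to 3.09), which lay below it. At this limit the share on chromosome 19 was 2.70% (2.14 to 3.41). The intervals were not adjusted for the comparison of 19 chromosomes. For comparison, regions listed only in MyoD-null myoblasts made up 8.65% of that list on chromosome 14 and 6.75% on chromosome 19.

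**Figure D5:**
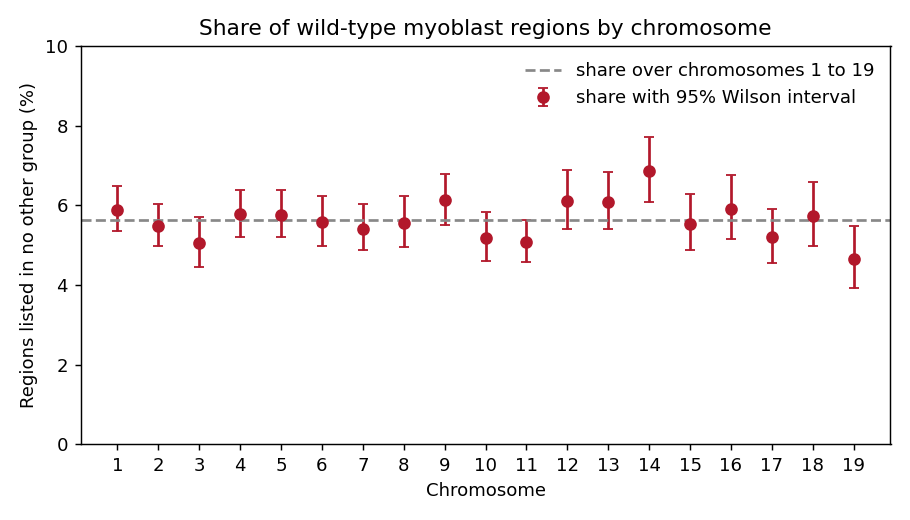
Percentage of wild-type myoblast regions listed in no other group (y axis) on chromosomes 1 to 19 (x axis), with 95% Wilson intervals, and the share of 5.62% over all 19 as a dashed line. Chromosome 14 stands highest at 6.85% and chromosome 19 lowest at 4.64%.

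Most of the regions were scattered singly. Read along the chromosomes, 4743 of the 5236 had no other such region as a direct neighbour among all merged regions, and 493 (9.42%, 8.65 to 10.2) did. How often such neighbours arise depends on how common a class is, and these regions were 3.76% of all merged regions. A direct neighbour of its own kind was found for 15.9% of the regions listed only in MyoD-null myoblasts (5.52% of all merged regions), 35.9% of those only in the myocytes labelled wild type (16.2%) and 9.01% of those only in the myocytes labelled MyoD-null (3.41%). The order of the shares was that of the class sizes. There were 229 pairs, 9 runs of 3 regions and 2 runs of 4. In fixed windows of 100 kb, 3706 windows held 1 region, 616 held 2, 78 held 3, 11 held 4 and 4 held 5.

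The window with the highest summed strength among those 4 was on chromosome 4 from 127900001 to 128000000, and it was unlike the others in that the other groups were almost empty there. It held 6 wild-type myoblast peaks, 0 MyoD-null myoblast peaks, 0 peaks of the myocytes labelled wild type and 1 peak of those labelled MyoD-null. The 5 regions listed nowhere else had fold enrichments of 2.83 (127904921 to 127905120), 2.90 (127942691 to 127942917), 2.90 (127949616 to 127950032), 2.78 (127961320 to 127961794) and 3.86 (127995256 to 127995498). Their summits had 25, 27, 28, 25 and 39 reads. The sixth peak, at 127966835 to 127967191, had a fold enrichment of 5.12 with 55 reads and was also listed in the myocytes labelled MyoD-null, whose peak names read wild type, with 3.41 and 24 reads. The MyoD-null myoblast list had no peak over 152 kb around them, from 127855063 to 128006603.

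The other windows with 5 regions were busy in all groups. On chromosome 15, 80300001 to 80400000 held 12 wild-type myoblast peaks, 9 MyoD-null myoblast peaks and 6 in each myocyte list, and its 5 regions had fold enrichments of 2.73 to 3.33. On chromosome 11, 71800001 to 71900000 held 13 peaks in wild-type myoblasts, 11 in MyoD-null myoblasts, 10 in the myocytes labelled wild type and 8 in those labelled MyoD-null, and its 5 regions had 2.45 to 2.92. On chromosome 18, 82600001 to 82700000 held 14 peaks in wild-type myoblasts, 12 in MyoD-null myoblasts, 12 in the myocytes labelled wild type and 9 in those labelled MyoD-null, and its 5 regions had 2.34 to 2.80. The fifth window, chromosome 3 from 127000001 to 127100000, held 4 regions with 2.40 to 3.59, among 9 wild-type and 5 MyoD-null myoblast peaks.

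The other run of 4 regions was also on chromosome 4, from 152742842 to 152784654, with fold enrichments of 2.66 to 2.89 and summits of 25 to 30 reads. It lay in a stretch of 59.6 kb without a MyoD-null myoblast peak. Gaps in the MyoD-null myoblast list that held 3 or more of the regions numbered 22, of which 20 held 3, 1 held 4 and 1 held 5. Gaps in the wild-type myoblast list that held 3 or more regions listed only in MyoD-null myoblasts numbered 85, of which 72 held 3 and 13 held 4. In the same order, gaps with 1 such region numbered 4592 and 6234, and gaps with 2 numbered 287 and 593. The classes held 5236 and 7690 regions. How often such gaps arise depends on how common a class is, so 22 and 85 give no measure of clustering.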

How the data were processed

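ATAC-seq of 12 samples was available as 4 narrowPeak lists, 1 per group of 3. Peaks were called with MACS2 on build mm9, and deepTools was also used, per the submitters' processing notes; STAR is named there for the RNA-seq samples alone, and no version, ATAC-seq aligner or shift of reads for the transposase is stated in the sources used. Per the peak names, calls were made on merged BAM files with a MAPQ30 tag. The deposited fold enrichment is a ratio of summit pileup to local background, with 1 added to each as solved below. The deposited −log10 p and −log10 q belong to each summit. The deposited score (−log10 q times 10, truncated) was not used. The 6 RNA-seq samples were not analysed here.

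Summit reads (pileup) and background were solved from the deposited values as fold = (pileup + 1) / (background + 1), with the Poisson probability of a higher pileup. All peaks fitted to within 0.000824 in −log10 p. Read totals are unknown. Regions with more than 1 wild-type myoblast peak took the strongest. Medians have order-statistic and shares Wilson intervals at 95%, which cover counting error only. The share that a count of 0 allows was taken as 3 divided by the number of regions, which is lower than the upper Wilson limit. No test was run, and artefact-prone sites were not removed. The merging, recovery and distance steps were tested on 20000 simulated regions, where 8 of 8 quantities came back within 1 percent.

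The members and lists were chosen with earlier results of these data known. Named regions are the 10 with the highest fold enrichment, the strongest on each chromosome, the 3 widest, the 3 with the lowest −log10 q, the 3 with the smallest gap, and the 5 windows of 100 kb with most regions. The empty stretches, the runs, the comparison at like −log10 q and the sites with the highest local background were added after values were seen. Alternatives changed the overlap rule, the q and fold limits, the list lengths, the chromosomes, the lists set against wild-type myoblasts, the distances and the windows. The gene tables at hand carry coordinates of another build (GRCm38), so no gene, promoter or motif was assigned. Python 3.11.15 was used with statsmodels 0.14.6, scipy 1.17.1, pandas 2.3.3, numpy 2.4.6 and matplotlib 3.10.9.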

Additional observations from a re-analysis of the deposited data

Results flagged for a closer look

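The choice of regions covered chromosomes 1 to 19, and data on chromosome X, left out of it, held the same kind of signal. On chromosome X, 81 of 1601 wild-type myoblast regions (5.06%, 95% Wilson interval 4.09 to 6.24) were listed in no other group, with a median fold enrichment of 2.94. The strongest, at 84774555 to 84774834, had a fold enrichment of 3.92 with 35 reads at the summit. On chromosome Y it was 0 of 19 regions, which allows a share of up to 15.8%.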

How the results depend on the processing

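The number of regions, 5236, stayed within 1.5 times under 6 alternatives, with 3779 to 7551 regions. It was 8614 with a reciprocal overlap of 50%, 2619 with the wild-type myoblast list alone limited to a −log10 q of 5 or more, 986 with all lists limited to a fold enrichment of 4 or more, and 2046 with the wild-type myoblast list alone limited to a fold enrichment of 3 or more. It was 11840 without the list of MyoD-null myoblasts and 7972 without that of the myocytes labelled wild type. The median fold enrichment of 2.91 became 3.16 with lists of equal length and 3.02 without the list of MyoD-null myoblasts. The 50.99% within 10 kb of a region of all 4 groups became 45.7% with lists of equal length, 52.7% and 44.9% at −log10 q of 2 to 4 and 8 to 16, 29.9% for 5 kb and 87.9% for 50 kb. Of the 5 named windows, 2 recurred with windows of 50 kb and 1 with 500 kb. With −log10 q of 5 or more, the share was 3.94% on chromosome 14 and 2.70% on chromosome 19, against 3.16% on all 19. Chromosomes 17 and 11 then stood lower than chromosome 19, at 2.53% and 2.68%. Stricter limits and lists left out change these values by construction. No paired analysis was possible because the deposited lists pool the 3 replicates of each group, and for the same reason no replicate could be left out. Promoter and motif shares were not run. Depth limits all counts, since a missing peak shows no more than that the limit was not passed.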

Other observations

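Some regions listed only in wild-type myoblasts stood on a high local background, and they were chosen after their values were seen. A background of at least 5 times the genome-wide level was found at 9 of the 5236 regions (0.172%), against 0.234% of all wild-type myoblast regions. The highest values lay side by side on chromosome 11, at 3067435 to 3067791 with 123 reads over a background of 81.8 (fold enrichment 1.50) and at 3071280 to 3071545 with 118 reads over 73.4 (1.60). Chromosome 19, 5841588 to 5841804, followed with 108 reads over 57.7 (1.86). All 3 had peaks of other lists within 3255 bp.

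Other regions stood far from shared chromatin. A region on chromosome 8, 101940231 to 101940510, with 26 reads and a fold enrichment of 2.94, lay 3367204 bp from the nearest region of all 4 groups, yet a MyoD-null myoblast peak stood 2 bp away. On chromosome 15, the region from 15672912 to 15673141, with 25 reads and 2.83, had no peak of another list within 408049 bp.

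Among the stretches without a wild-type myoblast peak, chromosome 6 from 34909510 to 34944793 held 5 MyoD-null myoblast regions in 35.3 kb, of which 4 were listed nowhere else.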
